A study of Mus musculus with 12 samples.

Results

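The caveolae genes were 9 genes listed by symbol, by a rule that uses no measured value but was written with earlier results of these data known: the caveolins *Cav1*, *Cav2* and *Cav3*, the cavins *Cavin1*, *Cavin2* and *Cavin3*, the neck proteins *Ehd2* and *Pacsin2*, and the diaphragm protein *Plvap*. All 9 were found by Ensembl ID among the 35727 genes of the deposited table, and all 9 were among the 15506 genes that passed the filter on low counts. Bulk RNAseq had been measured in fibroblasts from neonatal mouse hearts that received *Sox17* and *Erg* retroviruses (*Sox17*-*Erg* samples) or served as control samples, at Day 3, Day 7 and 4 weeks, to follow the acquisition of an endothelial identity. There were 2 libraries in each of 6 groups, with totals of 19011635 to 41240449 estimated counts. All cultures shared EGM2, an endothelial growth medium, and the names of the count columns carry SE for *Sox17*-*Erg* and PMX for control samples. The labels do not explain these further, and the study's methods name pMX as the backbone of most of its retroviral constructs. Per the study's methods, hearts were pooled, PECAM1-positive cells could be depleted and THY1-positive cells collected before infection. The study's methods name C57BL/6J mice and *Tcf21*-CreERT2 mice bred with *Rosa26*-tdTomato as sources of cells and list C57BL/6J alone at neonatal age, and the labels give no strain. The factors were carried by retroviruses and no sort of converted cells before RNA isolation was named, so a *Sox17*-*Erg* library can hold converted and unconverted cells. In such bulk samples, fewer cells of a type and less RNA per cell cannot be told apart. Nothing in the labels says that the 2 libraries of a group came from separate cultures or isolations, so p-values measure only the spread between these libraries, and whether that spread is technical was not tested. It was larger than counting noise in every group: over genes, the chi-square between the 2 libraries was 29.8 to 76.2 times its degrees of freedom.

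Caveolae are flask-shaped pits of the plasma membrane that are abundant in endothelial cells, adipocytes, smooth muscle cells and fibroblasts. Caveolins insert into the inner leaflet and assemble with cholesterol, a cavin coat wraps the bulb, and EHD2 and PACSIN2 sit at or shape the neck. In endothelium they take part in membrane tension buffering, lipid handling and transcytosis, and PLVAP forms the diaphragms that span the openings of caveolae and fenestrae. CAV3 is the caveolin of striated muscle, where it takes the place that CAV1 has in other cells.

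*Cav1*, *Cav2* and *Cav3* all lie on chromosome 6 of GRCm38, and *Cav2* and *Cav1* are neighbors on the plus strand. *Cav2* spans chr6:17281185-17289115 and *Cav1* spans chr6:17306335-17341452, with 17219 bases between the end of *Cav2* and the start of *Cav1*, whereas *Cav3* lies far downstream at chr6:112459505-112472872. The neighboring pair moved together in these data and *Cavin2*, at chr1:51289126-51302960, moved the other way, so the 250 bases before the start of each of these 3 genes are shown. *Cav1* has a second RefSeq start, whose window (chr6:17307390-17307639) held no match to the letters below either and is not printed. They are RefSeq sequences of GRCm38.p6, read 5′ to 3′ on the plus strand, at chr6:17306085-17306334, chr6:17280935-17281184 and chr1:51288876-51289125 in the order given, and 7 of the 9 members had an entry in that table (*Cavin3* and *Plvap* did not). Capitals mark matches, on either strand, to the ETS letters CGGAAG or AGGAAG or to the SOX letters ATTGTT, which were chosen because ERG is an ETS factor and SOX17 a SOX factor.
Cav1: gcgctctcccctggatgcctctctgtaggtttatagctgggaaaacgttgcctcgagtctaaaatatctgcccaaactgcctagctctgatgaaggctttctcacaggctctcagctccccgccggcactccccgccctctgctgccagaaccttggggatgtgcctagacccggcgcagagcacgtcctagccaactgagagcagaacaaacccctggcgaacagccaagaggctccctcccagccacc
Cav2: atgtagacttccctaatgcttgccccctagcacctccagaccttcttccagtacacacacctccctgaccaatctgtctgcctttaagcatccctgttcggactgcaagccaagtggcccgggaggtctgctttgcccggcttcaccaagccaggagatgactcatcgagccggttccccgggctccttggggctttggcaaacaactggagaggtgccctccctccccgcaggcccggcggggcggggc
Cavin2: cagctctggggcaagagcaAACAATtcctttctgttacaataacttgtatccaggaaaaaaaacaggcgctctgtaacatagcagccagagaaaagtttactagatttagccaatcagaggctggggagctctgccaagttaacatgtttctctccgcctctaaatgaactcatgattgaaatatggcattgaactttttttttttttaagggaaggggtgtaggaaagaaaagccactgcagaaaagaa
No match to either set of letters stood in the *Cav1* or *Cav2* window shown, and the *Cavin2* window held 1 SOX match, AACAAT on the strand shown, that began 231 bases before the start. Of 32851 promoter windows of the same length, 39.2% held an ETS match and 9.4% a SOX match. GC content was 59.6% in the *Cav1* window shown, 62.0% in the *Cav2* window and 40.4% in the *Cavin2* window. A match in 6 letters is a description and not a binding site, and the absence of one says only that these letters are not in this window.

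*Sox17* and *Erg* followed the labels. *Sox17* had between 0 and 9 counts in the 6 control libraries and between 10019 and 36238 in the 6 *Sox17*-*Erg* libraries, and *Erg* had at most 49 counts in a control library and at least 389 in a *Sox17*-*Erg* library. Counts per gene do not tell retroviral from endogenous copies.

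The caveolins split. *Cav1* and *Cav2* were higher in *Sox17*-*Erg* samples at all 3 time points, by 2.71-fold to 6.90-fold, while the muscle caveolin *Cav3* was lower at Day 3. Over all 9 members, 2 of 9 were called higher at Day 3 (beside 7.19% of all tested genes), 3 of 9 at Day 7 (beside 9.48%) and 3 of 9 at 4 weeks (beside 11.9%). In the lower direction 1 of 9 was called at Day 3 (beside 5.13% of all tested genes), 1 of 9 at Day 7 (beside 7.93%) and 1 of 9 at 4 weeks (beside 11.0%). The threshold for a call was an adjusted p of 0.05 (Benjamini-Hochberg, over all tested genes). The median log2 fold change of the 9 members was -0.31, 0.03 and -0.12 at the 3 time points, against medians of all genes of 0.01, 0.0058 and -0.014. Each member was also compared over all 3 time points by exact two-sided permutation within time points, unadjusted over members. The exact permutation p was 0.0093 for *Cav1*, *Cav2* and *Cavin3* (higher) and for *Cavin2* (lower). It was 0.028 for *Cav3*, *Plvap* and *Pacsin2* and 0.046 for *Ehd2*, all lower, and 0.27 for *Cavin1*.

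**Figure D1:**
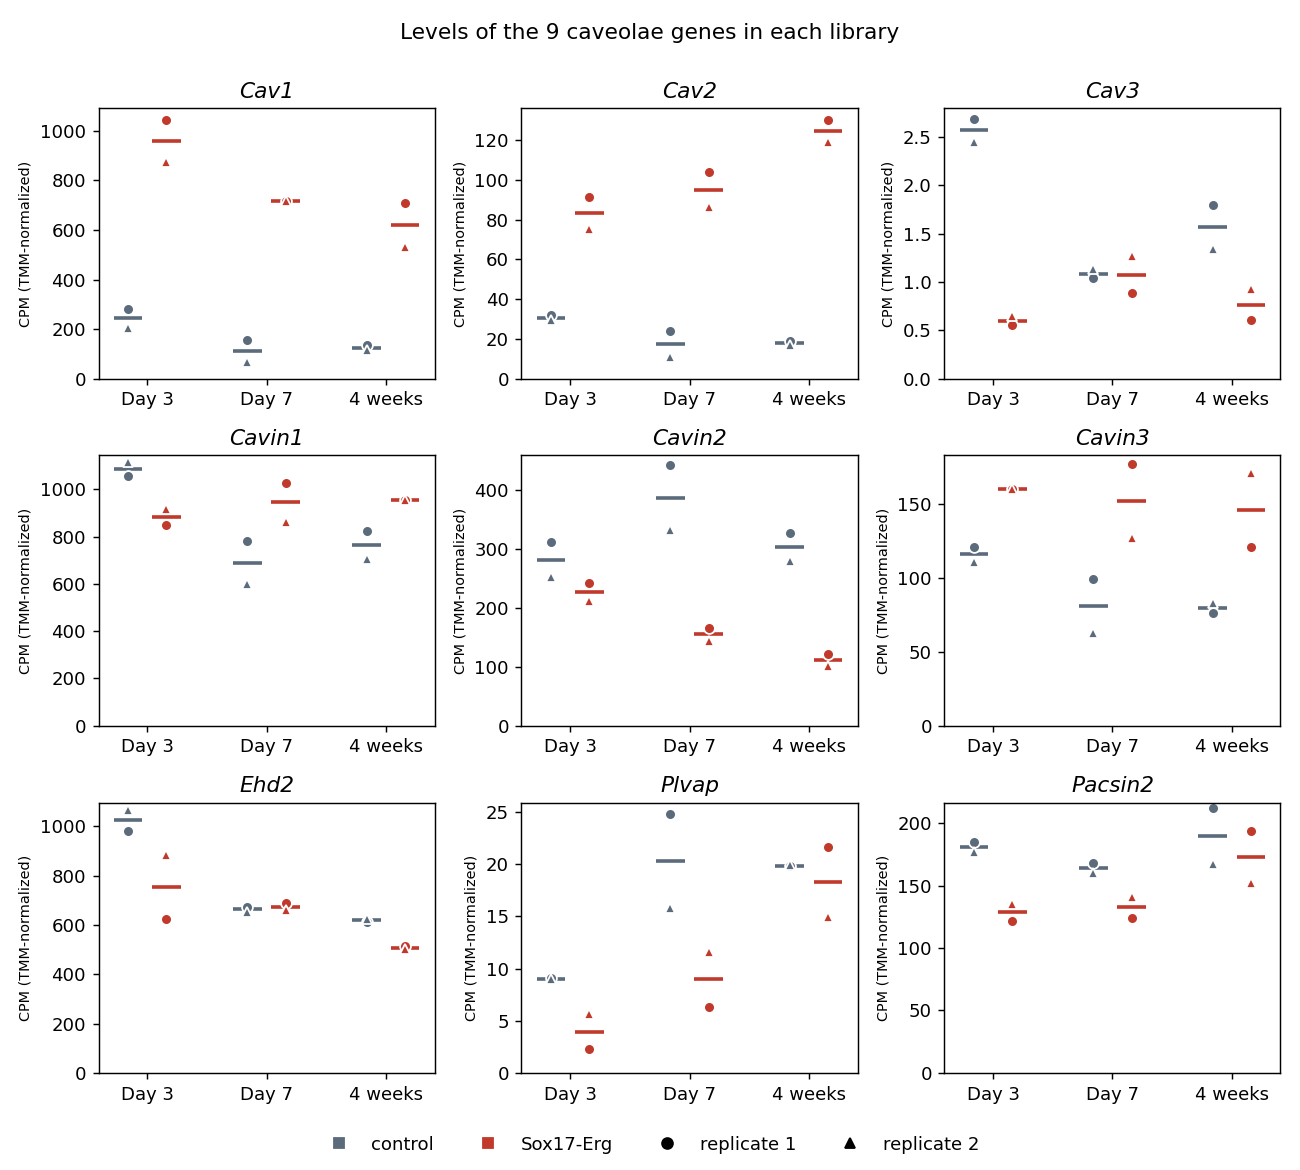
Level of each of the 9 caveolae genes in CPM (TMM-normalized, y axis from 0) by time point, with control libraries in gray, *Sox17*-*Erg* libraries in red, circles for replicate 1, triangles for replicate 2 and bars for the mean of 2 libraries. *Cav1* and *Cav2* are above every control library in all 6 *Sox17*-*Erg* libraries, while both *Sox17*-*Erg* libraries of *Plvap* are below both control libraries at Day 3 and Day 7.

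*Cav1*, the principal caveolin outside striated muscle, is given in CPM, the counts of a gene as a share of its library's total with TMM scaling. Control libraries held 283 and 205 CPM at Day 3, 155 and 69.0 CPM at Day 7, and 137 and 114 CPM at 4 weeks. *Sox17*-*Erg* libraries held 1042 and 875 CPM at Day 3, 716 and 716 CPM at Day 7, and 708 and 530.1 CPM at 4 weeks. The lowest *Sox17*-*Erg* library therefore lay above the highest control library, which was a Day 3 library. The log2 fold change was 1.97 (SE 0.34, adjusted p = 0.0099) at Day 3, 2.68 (SE 0.35, adjusted p = 0.0014) at Day 7 and 2.30 (SE 0.35, adjusted p = 0.0018) at 4 weeks. These correspond to 3.92-fold, 6.39-fold and 4.93-fold higher levels. The 3 *Sox17*-*Erg* groups stood in the order Day 3, Day 7, 4 weeks with no overlap between neighbors, and the control groups at 4 weeks and Day 7 overlapped.

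*Cav2*, which forms hetero-oligomers with *Cav1* protein and needs it to reach the cell surface, was also measured in every library. Control libraries held 31.9 and 29.5 CPM at Day 3, 23.8 and 11.1 CPM at Day 7, and 19.1 and 16.8 CPM at 4 weeks. *Sox17*-*Erg* libraries held 91.2 and 75.1 CPM at Day 3, 104 and 86.4 CPM at Day 7, and 130.1 and 119 CPM at 4 weeks. Here too no *Sox17*-*Erg* library reached down to the control range, and the highest *Sox17*-*Erg* libraries were those of 4 weeks. The log2 fold change was 1.44 (SE 0.29, adjusted p = 0.016) at Day 3, 2.44 (SE 0.30, adjusted p = 0.00092) at Day 7 and 2.79 (SE 0.30, adjusted p = 0.00028) at 4 weeks. Over the 12 libraries the log2 CPM of *Cav1* and *Cav2* had a Pearson r of 0.95, a description of libraries that are grouped by treatment and time.

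The Day 3 calls of the caveolins rested on 3 of the 4 Day 3 libraries. Without control replicate 1, control replicate 2 or *Sox17*-*Erg* replicate 1 of Day 3, the adjusted p of *Cav1* was 0.051, 0.093 and 0.086, and that of *Cav2* was 0.088, 0.12 and 0.14. The Day 3 log2 fold changes themselves stayed between 1.73 and 2.22 for *Cav1* and between 1.25 and 1.57 for *Cav2* when any single library was left out. At Day 7 they ran from 2.21 to 3.35 for *Cav1* and from 2 to 3.07 for *Cav2*.

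*Cav3*, the muscle caveolin, was low, with 11 to 74 counts per library. Control libraries held 2.69 and 2.45 CPM at Day 3, 1.04 and 1.13 CPM at Day 7, and 1.80 and 1.34 CPM at 4 weeks. With *Sox17*-*Erg* the values were 0.557 and 0.646 CPM at Day 3, 0.882 and 1.27 CPM at Day 7, and 0.602 and 0.926 CPM at 4 weeks. The groups did not overlap at Day 3 and 4 weeks and overlapped at Day 7. *Cav3* fell by 2.09 on the log2 scale at Day 3 (SE 0.37, adjusted p = 0.01), and the difference was -0.01 (SE 0.35, adjusted p = 0.99) at Day 7 and -1.05 (SE 0.35, adjusted p = 0.063) at 4 weeks. The Day 3 call was lost without the same 3 libraries as for *Cav1* (adjusted p = 0.066, 0.051 and 0.098 in the same order). Of 9 cardiomyocyte markers, 1, 3 and 6 were lower in *Sox17*-*Erg* samples at the 3 time points, beside 5.13%, 7.93% and 11.0% of all tested genes. None was called higher, and their median log2 fold change was -0.72, -1.07 and -2.05. Their summed level was 897 to 1536 CPM in control and 336 to 419 CPM in *Sox17*-*Erg* libraries at Day 3. Most of this sum was *Tnnt2*, the 1 marker called at Day 3 (1431 and 832 CPM in control, 356 and 298 CPM in *Sox17*-*Erg* libraries). The part of these markers in the *Cav3* result was not tested.

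**Figure D2:**
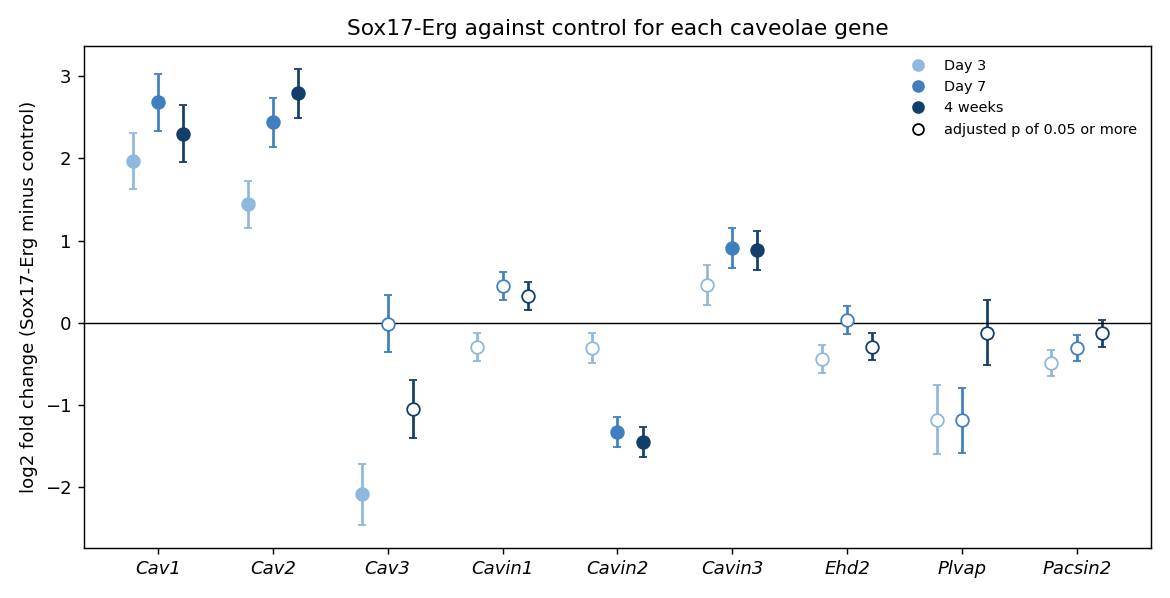
Log2 fold change of *Sox17*-*Erg* against control samples for the 9 caveolae genes at Day 3, Day 7 and 4 weeks (points, with bars of 1 SE of the edgeR fit), where open points had an adjusted p of 0.05 or more. *Cav1*, *Cav2* and *Cavin3* lie above 0 at every time point and *Cavin2* lies below, with filled points for *Cavin2* and *Cavin3* at Day 7 and 4 weeks.

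The cavins did not move as a block. *Cavin1*, the cavin that is required for caveola formation, was not called by edgeR without a block at any time point, *Cavin2* was lower and *Cavin3* higher in *Sox17*-*Erg* samples at Day 7 and 4 weeks. *Cavin1* had 1056 and 1118 CPM in control libraries at Day 3, 780.2 and 601 CPM at Day 7, and 823 and 706 CPM at 4 weeks. *Sox17*-*Erg* libraries held 850 and 916, 1027 and 863, and 957 and 955 CPM of *Cavin1* at the same times. At Day 3 both *Sox17*-*Erg* libraries lay below both control libraries, and at Day 7 and 4 weeks both lay above. The log2 fold change of *Cavin1* was -0.30 (adjusted p = 0.26), 0.45 (adjusted p = 0.098) and 0.32 (adjusted p = 0.20), each with an SE of 0.17. With a replicate block within each time point, *Cavin1* was called higher at Day 7 (0.46, adjusted p = 0.03), as it was by DESeq2 (0.44, adjusted p = 0.035).

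*Cavin2* encodes a cavin that binds phosphatidylserine and helps to shape caveolae in some tissues. Control libraries held 312 and 252 CPM at Day 3, 442 and 333 CPM at Day 7, and 328 and 279 CPM at 4 weeks. In *Sox17*-*Erg* libraries it was 242 and 212 CPM at Day 3, 166 and 144 CPM at Day 7, and 121 and 102 CPM at 4 weeks. The groups lay close together at Day 3 and apart at Day 7 and 4 weeks, and the *Sox17*-*Erg* groups were lower at each later time with no overlap. *Cavin2* fell by 1.33 (SE 0.18, adjusted p = 0.0018) at Day 7 and by 1.45 (SE 0.18, adjusted p = 0.00073) at 4 weeks on the log2 scale, 2.51-fold and 2.73-fold lower levels, and its Day 3 difference was -0.31 (SE 0.18, adjusted p = 0.28). With a GC offset and the replicate block within each time point the Day 3 difference was called as well (-0.39, adjusted p = 0.032). Leaving out any single library ended none of the Day 7 and 4 weeks calls of *Cav1*, *Cav2* and *Cavin2*.

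*Cavin3*, a cavin that binds protein kinase C delta, showed smaller differences. Control libraries held 121 and 111 CPM at Day 3, 99.3 and 62.6 CPM at Day 7, and 76.3 and 82.9 CPM at 4 weeks. With *Sox17*-*Erg* these were 159.7 and 159.8, 177 and 127, and 121 and 171 CPM. At each time point both *Sox17*-*Erg* libraries were above both control libraries, although the lowest *Sox17*-*Erg* library (4 weeks) and the highest control library (Day 3) both stood at 121 CPM. Its log2 fold change was 0.46 (SE 0.24, adjusted p = 0.23) at Day 3, 0.91 (SE 0.24, adjusted p = 0.033) at Day 7 and 0.88 (SE 0.24, adjusted p = 0.03) at 4 weeks. With the replicate block within each time point it was also called at Day 3 (0.47, adjusted p = 0.031). With each time point fitted alone it was called at Day 3 (0.44, adjusted p = 0.042) and the Day 7 call was lost (0.89, adjusted p = 0.14). These calls were close to the threshold. At Day 7 the adjusted p was between 0.052 and 0.24 without control Day 3 replicate 1 or 2, control Day 7 replicate 2, control 4 weeks replicate 2, *Sox17*-*Erg* Day 3 replicate 1 or *Sox17*-*Erg* Day 7 replicate 1. At 4 weeks it was 0.15, 0.086 and 0.19 without control 4 weeks replicate 1, control 4 weeks replicate 2 or *Sox17*-*Erg* 4 weeks replicate 2, where the log2 fold change was 0.82, 0.94 and 0.58. An annotated transcript on the opposite strand, *Gm45667*, covers 22.5% of the exon length of *Cavin3*. The kit was stranded, and whether the quantification used strand was not given in the sources used here.

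*Ehd2* and *Pacsin2*, the neck proteins, were not called between treatments by edgeR with all libraries and no block, and both were called lower at Day 3 by DESeq2 (-0.46, adjusted p = 0.027, and -0.51, adjusted p = 0.025). *Ehd2* encodes an ATPase that stabilizes caveolae at the membrane. Control libraries held 981 and 1068 CPM of *Ehd2* at Day 3, 673 and 653 CPM at Day 7, and 613 and 625 CPM at 4 weeks. The *Sox17*-*Erg* values were 624 and 885, 689 and 660.3, and 514 and 501 CPM. The *Sox17*-*Erg* libraries were below the control libraries at Day 3 and 4 weeks and overlapped them at Day 7. Its log2 fold change was -0.44 (SE 0.17, adjusted p = 0.11), 0.03 (SE 0.17, adjusted p = 0.94) and -0.29 (SE 0.17, adjusted p = 0.25). With the replicate block within each time point *Ehd2* was called lower at Day 3 (-0.46, adjusted p = 0.043). The Day 3 difference was -0.72 without *Sox17*-*Erg* Day 3 replicate 2 and -0.25 without *Sox17*-*Erg* Day 3 replicate 1.

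*Pacsin2* encodes an F-BAR protein that bends membranes. Control libraries held 185 and 177 CPM at Day 3, 168 and 159.8 CPM at Day 7, and 212 and 167 CPM at 4 weeks, and *Sox17*-*Erg* libraries held 122 and 135, 124 and 141, and 194 and 152 CPM. The groups did not overlap at Day 3 and Day 7 and overlapped at 4 weeks. On the log2 scale the difference was -0.49 (SE 0.16, adjusted p = 0.072), -0.31 (SE 0.16, adjusted p = 0.21) and -0.13 (SE 0.16, adjusted p = 0.60), and the Day 3 value was called with the replicate block within each time point (-0.49, adjusted p = 0.019) and with Day 3 fitted alone (-0.52, adjusted p = 0.031). That block brought the Day 3 counts to 3 of 9 members higher, beside 12.7% of all tested genes under the same block, and 3 of 9 lower, beside 10.4%.

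*Plvap*, the endothelial diaphragm gene, was not called higher in *Sox17*-*Erg* samples at any time point. Control libraries held 9.06 and 9.02 CPM at Day 3, 24.8 and 15.8 CPM at Day 7, and 19.8 and 19.9 CPM at 4 weeks. *Sox17*-*Erg* libraries held 2.33 and 5.60 CPM at Day 3, 6.31 and 11.6 CPM at Day 7, and 21.7 and 14.9 CPM at 4 weeks. Both *Sox17*-*Erg* libraries lay below both control libraries at Day 3 and Day 7, and the 4 weeks groups overlapped. The log2 fold change was -1.18 (SE 0.42, adjusted p = 0.10) at Day 3, -1.19 (SE 0.40, adjusted p = 0.073) at Day 7 and -0.12 (SE 0.39, adjusted p = 0.87) at 4 weeks. The 95% interval ran from -2.13 to -0.22, from -2.10 to -0.28 and from -1 to 0.77 in turn, before adjustment over genes. DESeq2 called *Plvap* lower at Day 3 and Day 7 (adjusted p = 0.031 and 0.023), as did edgeR without the filter on low counts (0.0023 and 0.00083). Its Day 3 difference was -1.96 without *Sox17*-*Erg* Day 3 replicate 2 and -0.73 without *Sox17*-*Erg* Day 3 replicate 1. Its Day 7 difference was -1.73 without *Sox17*-*Erg* Day 7 replicate 2 and -0.81 without *Sox17*-*Erg* Day 7 replicate 1.

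Endothelial markers and those of other cell types were examined in the same libraries. At Day 3, Day 7 and 4 weeks, 7.19%, 9.48% and 11.9% of all tested genes were higher and 5.13%, 7.93% and 11.0% lower. The counts of all marker lists, also of the cardiomyocyte markers above, stand beside these shares. Of 8 endothelial markers tested, 4, 5 and 6 were higher in *Sox17*-*Erg* samples at Day 3, Day 7 and 4 weeks and 0 were lower, and their summed level ran from 20 to 54.8 CPM in control libraries and from 308 to 770.4 CPM in *Sox17*-*Erg* libraries. Among them, *Cdh5* (VE-cadherin) averaged 0.41 CPM in control and 445 CPM in *Sox17*-*Erg* samples at 4 weeks (log2 fold change 10.17, adjusted p = 0.0027), whereas the tight junction gene *Cldn5* had at most 10 counts in any library. Of 9 smooth muscle and pericyte markers, 2, 6 and 5 were higher and 0, 1 and 1 lower, and at 4 weeks they summed to 1676 to 3263 CPM in control and 5255 to 5316 CPM in *Sox17*-*Erg* libraries. Of 9 fibroblast markers, 0, 1 and 1 were higher and 1, 3 and 4 lower, with sums of 16288 to 19913 CPM and 12428 to 13087 CPM at 4 weeks. These sums overlapped at Day 3 (32734 to 39908 CPM in control, 26191 to 41682 CPM in *Sox17*-*Erg* libraries). At Day 7 they were 24742 to 32942 CPM in control and 32046 to 35188 CPM in *Sox17*-*Erg* libraries. Epicardial or mesothelial markers were lower in 1, 4 and 7 of 7 (925 to 1465 CPM and 167 to 263 CPM at 4 weeks) and adipocyte markers in 1, 4 and 4 of 7 tested (405 to 581 CPM and 252 to 363 CPM), with 0 higher in both lists, also at an unadjusted p under 0.05. At Day 3 the adipocyte sums ran the other way (148 to 185 CPM and 193 to 265 CPM), and at Day 7 they overlapped. None of 6 macrophage markers (45.7 to 352 CPM and 54.2 to 248 CPM at 4 weeks) was called by edgeR, and 1 had an unadjusted p under 0.05, at Day 7. At Day 7 their sums did not overlap, with 694 to 1131 CPM in control and 202 to 381 CPM in *Sox17*-*Erg* libraries. Their median log2 fold change was then -1.4. None of 2 tested skeletal muscle markers was called or had an unadjusted p under 0.05, and *Myod1*, *Myog* and *Pax7* had at most 2 counts in any library. Smooth muscle cells, adipocytes and fibroblasts carry caveolae too. The part of these cell types in the values of the caveolae genes was not tested.

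**Figure D3:**
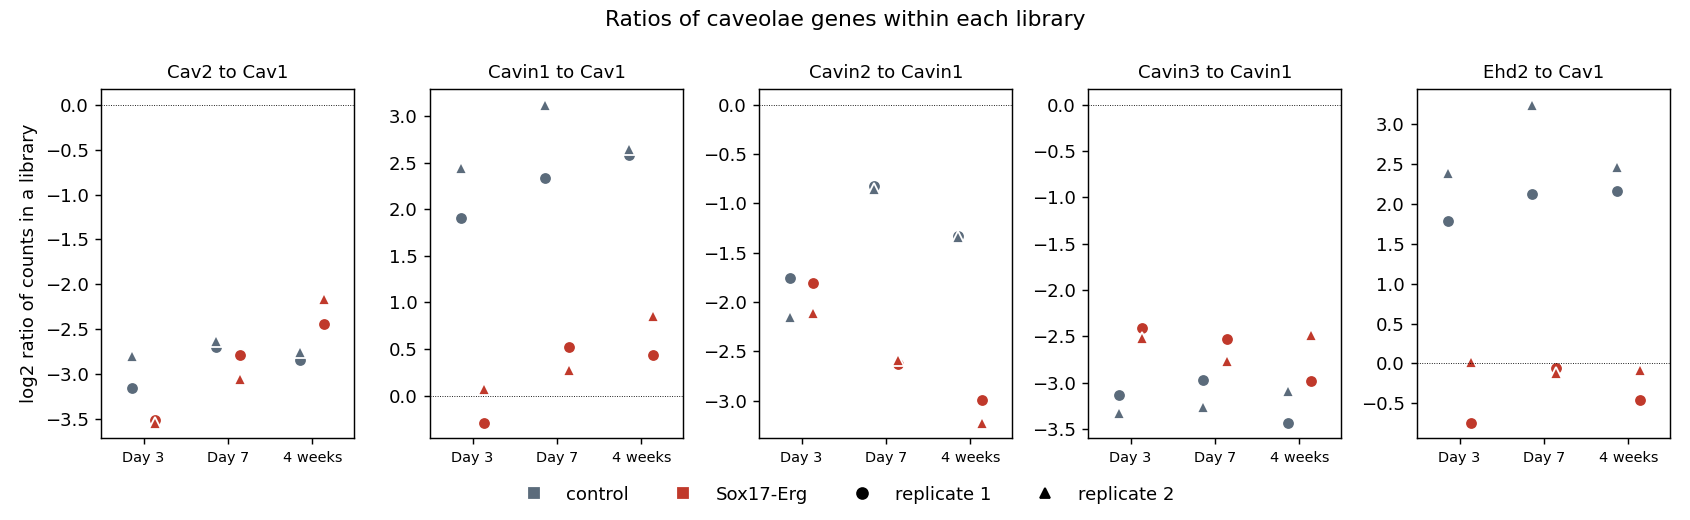
Log2 ratio of the counts of 2 members within each library (y axis, a separate range in each panel, with the dotted line at 0) by time point for control (gray) and *Sox17*-*Erg* (red) libraries, with circles for replicate 1 and triangles for replicate 2. The ratios of *Cavin1* and *Ehd2* to *Cav1* separate all 6 *Sox17*-*Erg* from all 6 control libraries, and that of *Cavin2* to *Cavin1* separates them at Day 7 and 4 weeks.

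Ratios of counts within a library do not depend on how libraries are scaled. They are not divided by length, so they compare libraries and not the levels of 2 genes, and 5 such ratios were compared by exact two-sided permutation within time points, for which the smallest p possible was 0.0093. The log2 ratio of *Cavin1* to *Cav1*, the main coat protein to the main caveolin, lay between 1.90 and 3.12 in control and between -0.29 and 0.85 in *Sox17*-*Erg* libraries, a mean difference of -2.19 (exact permutation p = 0.0093, 0.016 adjusted over the 5 ratios). The log2 ratio of *Ehd2* to *Cav1* moved likewise, from 1.79 to 3.24 in control and from -0.74 to 0.02 in *Sox17*-*Erg* libraries (difference -2.60, exact permutation p = 0.0093, adjusted 0.016). Both ratios were therefore lower in each *Sox17*-*Erg* library than in any control library, at every time point. The ratio of *Cav2* to *Cav1* differed by -0.10 over all time points (exact permutation p = 0.54). It was lower by 0.55 at Day 3 and higher by 0.50 at 4 weeks in *Sox17*-*Erg* samples, and at a single time point the smallest exact p is 0.33. The ratio of *Cavin2* to *Cavin1* differed by -1.18 (exact permutation p = 0.028, adjusted 0.035), with differences of -0.01 at Day 3 and -1.77 at both Day 7 and 4 weeks. Within replicate pairs its exact p was 0.062. The ratio of *Cavin3* to *Cavin1* was higher by 0.59 in *Sox17*-*Erg* samples (exact permutation p = 0.0093, adjusted 0.016).

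The order of different genes by level was taken only per length, as counts per kb of merged exon length scaled so that each library has the same total. Over the 6 control libraries the per-length levels fell in the order *Cavin1* (747 ± 156, SD), *Ehd2* (474 ± 107), *Cavin2* (338 ± 71.2), *Cavin3* (176 ± 39.2), *Cav1* (147 ± 67.0), *Pacsin2* (115 ± 13.5), *Plvap* (26.5 ± 10.8), *Cav2* (20.9 ± 7.04) and *Cav3* (4.75 ± 1.81). Ranges of neighbors in this order overlapped for every pair except *Cavin2* and *Cavin3*, *Pacsin2* and *Plvap*, and *Cav2* and *Cav3*. Over the 6 *Sox17*-*Erg* libraries the order was *Cavin1* (832 ± 86.2), *Cav1* (707 ± 136), *Ehd2* (401 ± 61.8), *Cavin3* (295 ± 50), *Cavin2* (171 ± 48.7), *Cav2* (97.9 ± 24.3), *Pacsin2* (95.1 ± 20.2), *Plvap* (17.2 ± 12.1) and *Cav3* (2.29 ± 0.864). Here the ranges of neighbors did not overlap between *Cav1* and *Ehd2*, between *Pacsin2* and *Plvap*, and between *Plvap* and *Cav3*, where the lowest *Plvap* value (3.70) was next to the highest *Cav3* value (3.69). The SDs cover the 3 time points as well as replicates, and the order of neighbors was not the same at each time. At Day 3 the control mean of *Cav2* (28.2) was above that of *Plvap* (13.9) and that of *Cav1* (218) lay next to that of *Cavin3* (213), whereas at 4 weeks *Plvap* (33.1) was above *Cav2* (17.8) and *Cavin3* (159) above *Cav1* (120.4). In *Sox17*-*Erg* samples at Day 3 the mean of *Cav1* (840.3) was above that of *Cavin1* (739) and that of *Pacsin2* (78.6) above that of *Cav2* (75.4), and at 4 weeks the mean of *Cav2* (126) was above that of *Cavin2* (123). The order also turned with the length used. Per kb of the longest transcript, *Cav1* (706 ± 135) came before *Cavin1* (680.3 ± 69.5) and *Pacsin2* (101 ± 21.7) before *Cav2* (95.1 ± 23.7) in *Sox17*-*Erg* libraries, and *Cav1* (146 ± 66.5) before *Cavin3* (139 ± 31.3) in control libraries (SD, n = 6).

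**Figure D4:**
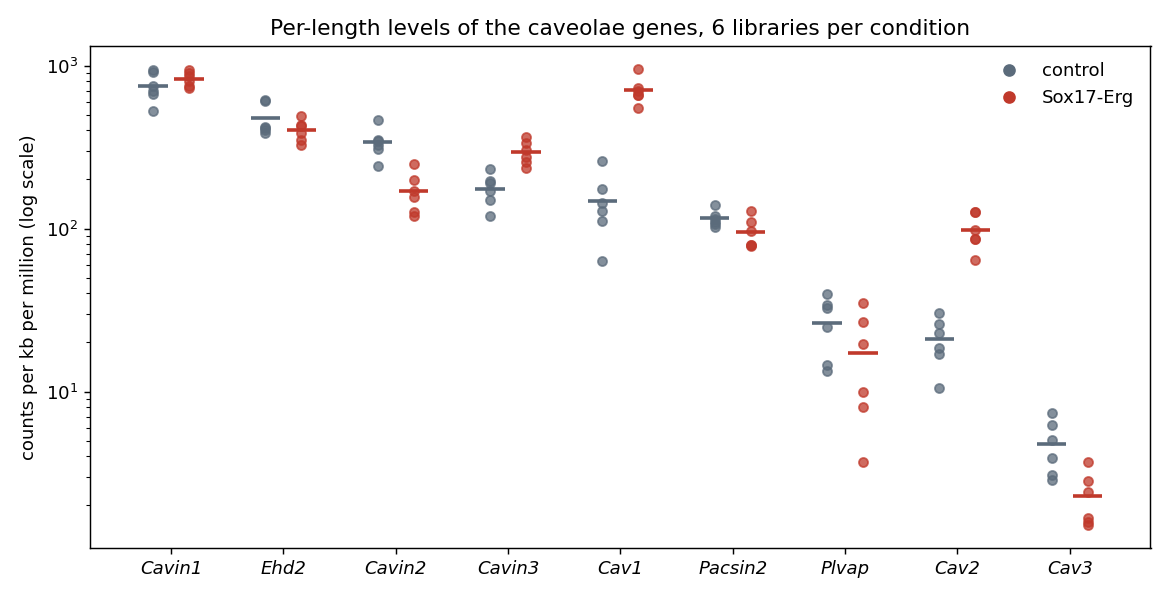
Per-length level of each caveolae gene (counts per kb of merged exon length, scaled to equal library totals, log axis) in the 6 control (gray) and 6 *Sox17*-*Erg* (red) libraries, with bars at the mean and genes in the order of the control mean. *Cav1* moves from a mean of 147 in control to 707 in *Sox17*-*Erg* libraries and *Cav2* from 20.9 to 97.9.

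The time courses within each treatment were compared between 4 weeks and Day 3. In control samples 1 member was lower, *Ehd2* (-0.73, SE 0.17, adjusted p = 0.013), and 0 were higher at 4 weeks, where 12.6% and 13.9% of all tested genes were lower and higher. By edgeR 1 member, *Plvap*, had an unadjusted p under 0.05 in the higher direction and 4 in the lower, and DESeq2 called 1 higher (*Plvap*) and 4 lower (*Cav1*, *Cav2*, *Cavin1* and *Ehd2*). With a replicate block over all libraries 3 were lower (*Cav1*, *Cav2* and *Ehd2*). The *Ehd2* call in control samples was lost without any 1 of the 4 control libraries of Day 3 and 4 weeks, and 4 members were lower without either control library of Day 7. In *Sox17*-*Erg* samples *Cavin2* (-1.03, SE 0.18, adjusted p = 0.0042) and *Ehd2* (-0.57, SE 0.17, adjusted p = 0.029) were lower, 2 of 9 members beside 15.6% of all genes. The *Ehd2* call in *Sox17*-*Erg* samples was lost without control Day 3 replicate 2, Day 7 replicate 1 or 4 weeks replicate 2, and without *Sox17*-*Erg* Day 3 replicate 2, Day 7 replicate 2 or either 4 weeks replicate. *Plvap* was higher at 4 weeks than at Day 3 in *Sox17*-*Erg* samples (2.19, SE 0.43, adjusted p = 0.0061), 1 of 9 beside 15.1%, and in control samples its difference was 1.14 (SE 0.40, adjusted p = 0.066). The difference between the time courses was tested as an interaction.

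Of all tested genes, 3.21% had an effect of *Sox17*-*Erg* that differed between 4 weeks and Day 3, and 1 of the 9 members did, *Cavin2* (-1.13, SE 0.26, adjusted p = 0.0498). This call lay at the threshold: the count was 0 with DESeq2 size factors, a filter of 1 CPM in 4 libraries or a GC offset, and 2, *Cav2* and *Cavin2*, with DESeq2, without a filter or with either replicate block. It was also 0 when any library of Day 3 or 4 weeks, or either *Sox17*-*Erg* library of Day 7, was left out, and 2 without either control library of Day 7. The interaction of *Cav2* was 1.35 (SE 0.40, adjusted p = 0.117) and that of *Plvap* was 1.06 (SE 0.58, adjusted p = 0.408).

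Other genes of the pathway were taken from lists written with earlier results of these data known. Of 13 tested partners of the caveola core (other EHD and PACSIN proteins, dynamin, filamin A and kinases that act on caveolin-1), 1, 3 and 5 were higher and 1, 0 and 1 lower at Day 3, Day 7 and 4 weeks. The counts of this list and of those that follow stand beside 7.19%, 9.48% and 11.9% of all tested genes higher and 5.13%, 7.93% and 11.0% lower at these times. At 4 weeks the kinase genes *Fyn* (23.4 to 53.1 CPM, log2 fold change 1.18, adjusted p = 0.00063) and *Src* (29.2 to 51.4 CPM, 0.82, adjusted p = 0.0026), whose products phosphorylate caveolin-1, and *Pacsin3* (18.2 to 44.5 CPM, 1.29, adjusted p = 0.0017), the muscle paralog of *Pacsin2*, were higher, with the control mean given first in each pair here and in what follows. *Ehd3*, an endosomal paralog of *Ehd2*, was lower at Day 3 (170.2 to 47.6 CPM, -1.84, adjusted p = 0.0059) and 4 weeks (478 to 229.6 CPM, -1.06, adjusted p = 0.022). The *Ehd* and *Pacsin* paralogs thus had calls in both directions.

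Of 14 tested genes for cargo and signaling of endothelial caveolae, 3, 4 and 4 were higher and 1, 2 and 3 lower. *Mfsd2a*, a lysolipid transporter that restrains caveolar transcytosis in brain endothelium, was higher at Day 3 (8.01 to 67.5 CPM, log2 fold change 3.07, adjusted p = 0.0047), Day 7 (0.887 to 90.7 CPM, 6.67, adjusted p = 0.00016) and 4 weeks (0.674 to 108 CPM, 7.46, adjusted p = 5.4e-05). *Kdr*, the VEGF receptor, was higher at all 3 times (3.19 to 30.8 CPM at 4 weeks, 3.26, adjusted p = 0.0011). *Cd36*, a fatty acid transporter of capillaries and adipocytes, was lower at Day 7 (44.2 to 5.01 CPM, -3.17, adjusted p = 0.0079) and 4 weeks (28.0 to 1.87 CPM, -3.90, adjusted p = 0.0029), and *Acvrl1*, an endothelial BMP receptor, was lower at all 3 times (-0.68 to -0.94, adjusted p = 0.0052 at 4 weeks). *Nos3*, the endothelial nitric oxide synthase that caveolin-1 binds, averaged 0.0539 to 0.813 CPM and was not called.

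Of 6 tested fenestra and barrier genes, 2, 3 and 4 were higher and 0, 1 and 1 lower, while *Plvap* itself was not higher. *Vegfa*, whose product induces fenestrae, was higher at Day 7 (49.5 to 80.0 CPM, 0.69, adjusted p = 0.048) and 4 weeks (41.9 to 129 CPM, 1.62, adjusted p = 0.00081). *Emcn*, an endothelial sialomucin, was higher at all 3 times (1.14 to 27.9 CPM at 4 weeks, 4.63, adjusted p = 0.0024), as was *Esm1*, a tip cell gene (1.23 to 4.41 CPM at 4 weeks, 1.87, adjusted p = 0.019). *Angpt2* was higher at 4 weeks (20.3 to 117 CPM, 2.53, adjusted p = 0.00095).

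Of 17 tested genes of other endocytic coats, 1, 2 and 1 were higher and 1, 1 and 2 lower, close to the shares over all tested genes. The clathrin light chain gene *Cltb* was higher at all 3 times (0.88 to 1.29) and the clathrin adaptor *Dab2* lower (-1.08 to -1.62), while *Picalm* was higher at Day 7 (0.45, adjusted p = 0.046) and *Ap2s1* lower at 4 weeks (-0.54, adjusted p = 0.041). Of 12 cholesterol and sphingolipid genes, which supply the lipids that caveolin binds, 0, 2 and 2 were higher and 0, 0 and 1 lower. At Day 3, 1 of them was higher and 2 lower at an unadjusted p under 0.05. Among the calls were *Sgms1*, a sphingomyelin synthase (1.55 at 4 weeks, adjusted p = 0.0014), *Srebf2* (0.98 at Day 7, adjusted p = 0.044) and *Sptlc2* (-0.42 at 4 weeks, adjusted p = 0.043). Of 10 targets of YAP/TAZ and SRF, which respond to tension, 1, 4 and 4 were higher and 0, 0 and 1 lower, with *Ajuba* higher at all 3 times (1.59 at Day 7, adjusted p = 0.0018), *Ccn1* at Day 7 and 4 weeks (1.75 at 4 weeks, adjusted p = 0.012), *Myl9* at 4 weeks (1.42, adjusted p = 0.0042) and *Amotl2* lower at 4 weeks (-0.77, adjusted p = 0.012).

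Since *Cav2* and *Cav1* are neighbors, the 7 tested genes within 500 kb of the pair were examined, a window chosen after the values of the members were seen. Besides *Cav2* and *Cav1*, *Met*, the receptor of hepatocyte growth factor 157 kb downstream of the *Cav1* start, was higher at all 3 time points (log2 fold change 3.18, 4.82 and 4.92, adjusted p = 0.0043, 0.00041 and 0.00019). *Tes*, a focal adhesion gene with its start at -241 kb, was higher as well (1.69, 1.66 and 2.86, adjusted p = 0.0021, 0.0012 and 4.5e-05), and *St7* at 387 kb was higher at Day 3 and Day 7 (1.14 and 1.01, adjusted p = 0.0023 and 0.0019). *Capza2* lay between *Met* and *St7*, at 329.9 kb, and its log2 fold change was between 0.04 and 0.07 (SE 0.13, adjusted p = 0.74 to 0.88). *Tfec*, at -408 kb, was not called (adjusted p = 0.14 to 0.92).

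**Figure D5:**
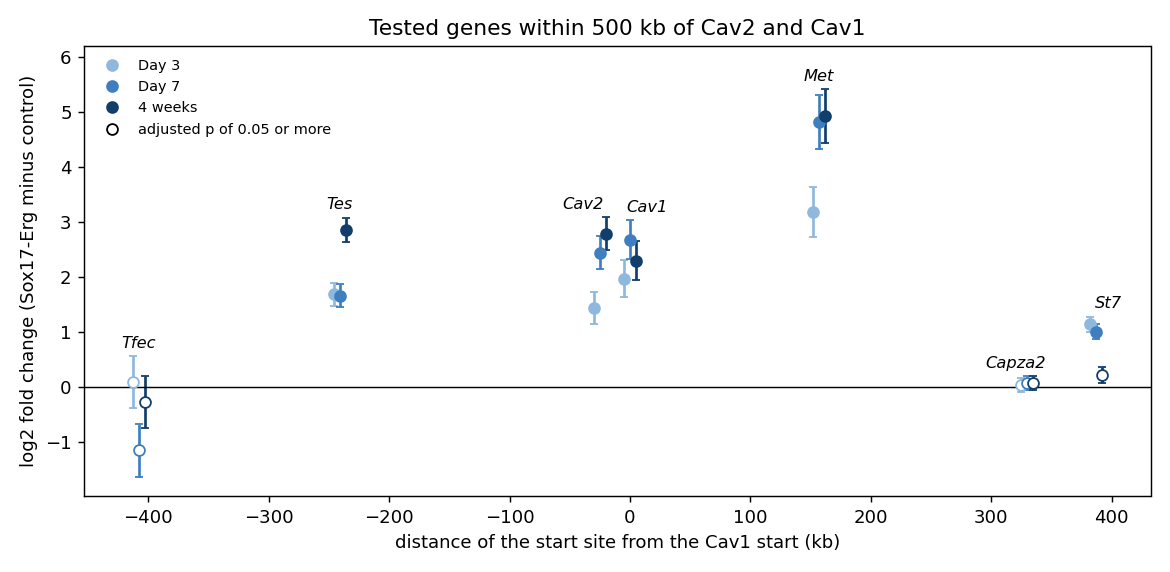
Log2 fold change of *Sox17*-*Erg* against control samples (y axis, bars of 1 SE) for the 7 tested genes within 500 kb of *Cav2* and *Cav1*, by the distance of each start site from the *Cav1* start in kb, at Day 3, Day 7 and 4 weeks (shifted by 5 kb to be seen apart), where open points had an adjusted p of 0.05 or more. *Tes*, *Cav2*, *Cav1* and *Met* lie above 0 at all times and *Capza2* lies close to 0.

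The genes whose log2 CPM followed *Cav1* most closely over the 12 libraries, among 15505 others, were *Trim16* (r = 0.982), *Slc26a7* (0.981), *Fam117b* (0.975), *Rnf165* (0.973) and *Slc6a15* (0.969). Those that followed *Plvap* were *Prelp* (0.968), *Pparg* (0.967), *1600012H06Rik* (0.966), *Gpr146* (0.963) and *Casp4* (0.960). The 2 lists shared no gene. Among the members, *Cavin3* followed *Cav1* (r = 0.91), *Cavin2* ran against *Cav2* (r = -0.84) and *Pacsin2* was the member nearest to *Plvap* (r = 0.72). These correlations are descriptions over libraries that are grouped by treatment and time and that differ in sequencing depth.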

How the data were processed

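Per the sample labels and the study's methods, mRNA libraries made with a stranded kit were read as 2 × 50 paired ends, demultiplexed with bcl2fastq 2.20.0, trimmed for high GC content with BBDuk and quantified with Salmon, with mm10 named as the build. The Salmon version and annotation were not given in the sources used here. The authors deposited estimated counts per gene, already whole numbers and not scaled for library size. Library totals were 19011635 to 41240449.

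Symbols, positions and lengths came from GENCODE M21. The quasi-likelihood test of edgeR 4.0.16 (R 4.3.3) was fitted to all libraries (TMM, filterByExpr at 10 counts and a total of 15, 1 mean per group, 6 residual degrees of freedom), and p-values were Benjamini-Hochberg adjusted over 15506 genes. Each SE was the absolute log2 fold change divided by the square root of the quasi-likelihood F. Ratios used a pseudocount of 0.5 counts. Scripts were tested on simulated data. The members and lists were chosen with earlier results of these data known. Named were all members, up to 4 genes per pathway list with the smallest adjusted p, and the 5 genes most like *Cav1* and *Plvap*. *Nos3*, the cell type markers named and the neighbors of *Cav1* fall outside this rule and were chosen after their values were seen. A gene that this rule names is not reported here. Replicate numbers come from the sample titles. Across genes, the deviations of same-numbered control and *Sox17*-*Erg* libraries had correlations between 0.17 and 0.30 at each of the time points. Between Day 3 and Day 7 the correlations were 0.17 in control and 0.22 in *Sox17*-*Erg* samples. With 4 weeks, those of Day 3 and Day 7 were between -0.11 and -0.05. The values alone therefore do not show that equal numbers pair libraries within a time point, and the replicate blocks are alternatives only. Viruses for compared conditions were made on the same day per the methods. Alternatives were DESeq2 1.42.0, its size factors, other filters, single time points, replicate blocks, a GC offset and leaving out each library.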

Additional observations from a re-analysis of the deposited data

Results flagged for a closer look

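The effect of *Sox17*-*Erg* on *Cavin2* differed between 4 weeks and Day 3 by -1.13 on the log2 scale (edgeR interaction, adjusted p = 0.0498), which was the 1 interaction among the caveolae genes that passed the threshold. *Cavin2* was lower in 2 of 2 *Sox17*-*Erg* libraries than in both control libraries at Day 3 and at 4 weeks. In the lower direction the interactions of the other members had no call, and the value for *Cavin2* between Day 7 and Day 3 was -1.01 (adjusted p = 0.22). None of the 9 members passed the interaction test between Day 7 and Day 3, where 4 had an unadjusted p under 0.05, or that between 4 weeks and Day 7, where 0 did.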

How the results depend on the processing

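In the lower direction at Day 3 (1 member), the count was 4 with DESeq2, 2 without a filter, 2 with each time point fitted alone, and 3 with the replicate block within each time point, with or without a GC offset. At Day 7 it was 2 with DESeq2 and without a filter. Between 4 weeks and Day 3, control samples had 1 member higher with DESeq2 and without a filter (0 otherwise), and 4 lower with both, 2 with a filter of 1 CPM and 3 with the replicate block over all libraries (1 otherwise). *Sox17*-*Erg* samples had 2 members higher with DESeq2, without a filter, with the 1 CPM filter and with the GC offset (1 otherwise). The interaction count of 1 was 2 with DESeq2, without a filter and with either replicate block, and 0 with DESeq2 size factors, the 1 CPM filter and the GC offset. Leaving out single libraries gave 0 to 2 members higher and 0 to 3 lower at Day 3, 1 to 2 lower at Day 7, 0 to 2 interactions, and for 4 weeks against Day 3 0 to 1 higher and 0 to 4 lower in control and 1 to 2 higher and 1 to 2 lower in *Sox17*-*Erg* samples.

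Over all genes, the replicate block within each time point gave 1973 higher and 1619 lower at Day 3 (1995 and 1652 with the GC offset, from 1115 and 795) and 2065 lower at Day 7 (2125 with the GC offset, from 1230). At Day 3, 1290 genes were lower with DESeq2 and 1333 without a filter. Fitting Day 7 alone gave 609 higher and 479 lower. Leaving out single libraries gave 201 to 1104 higher and 66 to 1001 lower at Day 3, 623 to 1371 and 297 to 1292 at Day 7, and 1049 to 1885 and 648 to 1710 at 4 weeks.

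Of the member fold changes under all alternatives, 514 kept direction and side of the threshold, 22 gained and 19 lost a call, and 12 changed sign. The sign changes were of values near 0: *Cav3* at Day 7 (0.02 with the GC offset, 0.01 with that and the replicate block, -0.33 to 0.24 without single libraries), *Ehd2* at Day 7 (-0.02 with the 1 CPM filter, -0.01 to 0.03), *Pacsin2* at 4 weeks (-0.33 to 0.05) and *Plvap* at 4 weeks (-0.42 to 0.10). The ratio of *Cavin2* to *Cavin1* had an exact p of 0.062 within replicate pairs (replicate block, difference -1.18). With the GC offset and the replicate block within each time point together, the 3 members lower at Day 3 were *Cav3*, *Cavin2* (-0.39, adjusted p = 0.032) and *Pacsin2*, and *Ehd2* was not called. Between treatments, the replicate blocks changed no other member call than these and those given beside the results. With the longest transcript as length, the per-length level of *Cavin1* was 644 over all libraries. The cause of these changes was not tested. *Cav3*, with 11 to 74 counts per library, had SEs of 0.35 to 0.37, beside 0.34 to 0.35 for *Cav1*. These SEs were worked back from the quasi-likelihood F and do not show that both genes were measured with equal precision.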
